A study of Mus musculus with 24 samples.

Results

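The 37 genes described here encode proteins that write, erase or read histone acetylation, other than Gcn5 itself. They were named in a list (11 acetyltransferases and coactivators, 11 histone deacetylases, 7 sirtuins, 5 bromodomain proteins and 3 YEATS domain proteins) and located in a RefSeq gene table of GRCm38.p6, the primary sequence of mm10, in which all 37 were found among 21887 protein-coding genes. Histone H3 acetylated at lysine 9 (H3K9ac) was located by ChIP-seq (sequencing of DNA bound to histones that an antibody pulls down) in embryoid bodies at day 5, the aggregates in which mouse embryonic stem cells begin to differentiate. All cells were of strain C57BL/6. The Gcn5 null cells were clones 4_C2 and 6_C4, and the cells that kept Gcn5 were clones 4_1 and 6_1, homozygous for the Gcn5fx allele (fx/fx). Clones 4_C2 and 4_1 form isolate pair 4, clones 6_C4 and 6_1 form isolate pair 6, and each clone gave 2 replicate libraries. Each genotype therefore rests on 2 clones, and p-values measure the spread between these 8 libraries only, part of which may be technical. The other 16 of the 24 samples are of total H3 and of input, and were not analysed here.

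Acetyltransferases transfer an acetyl group to lysines of the histone tails, deacetylases and the NAD-dependent sirtuins take it off, and bromodomain and YEATS proteins bind the acetylated lysine. H3K9ac lies mostly at the promoters of active genes. Gcn5, encoded by Kat2a, and its paralogue encoded by Kat2b are the acetyltransferases best known for this residue, so the mark at the genes of the other enzymes and readers was compared between null and fx/fx cells.

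The deposited lists give the position of each peak and no height. A gene was counted as marked in a library when a peak overlapped a window of 1000 bp either side of an annotated gene end, and the width of a region is the length in bp that the library's peaks cover within it. Widths in bp are not centred, so they also carry differences between whole lists. Log2 width changes are centred on each library's median unless stated. The lists held 12041 to 18932 peaks in null libraries and 13260 to 20809 in fx/fx libraries, and the shortest was that of clone 4_C2 replicate 2. Kat2a (log2 width change -0.08 ± 0.09, SE, limma adjusted p = 0.869) and Kat2b (0.11 ± 0.20, adjusted p = 0.924) were marked in all 8 libraries, and without the position of the deleted part this does not check the genotype. As a check of the labelled cells, 3 of 6 pluripotency and epiblast genes were marked in all 8 libraries and the other 3 in 6 or 7. All 6 mesoderm genes and all 5 endoderm genes were marked in 1 to 7 libraries, as were 4 of 5 neuroectoderm genes. None of these was marked in more pair 4 than pair 6 libraries, and Sox17, Foxa2 and Pax3 were marked in 4 pair 6 libraries and 1 pair 4 library. Only Gata4 was marked in more null (1) than fx/fx (0) libraries. The pair 6 lists are also the longer ones, and the cause was not tested. Of 6 fibroblast markers, Col3a1, Postn and Dcn were marked in no library, Col1a1 and Col1a2 in 1 each and Thy1 in 3. Of 4 blood markers, Ptprc and Hbb-bt were marked in none, Spi1 in 3 and Tal1 in all 8.

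Promoter sequences of 6 members are given because their peaks differed in the ways described below: Hdac8 had a peak in fx/fx libraries only, Hdac2 and Hat1 in all 8, Hdac6 in 6, Brd3 in all 8 at this start, and Hdac9 in none. Each is the 250 bases before the listed transcript start, from RefSeq on GRCm38.p6, read 5′ to 3′ on the gene's strand. They lie at chrX:102505159-102505408 (minus strand), chr10:36974294-36974543 (plus strand), chrX:7947890-7948139 (minus strand), chr12:34917096-34917345 (minus strand), chr2:27475399-27475648 (minus strand) and chr2:71389010-71389259 (plus strand). Capitals mark matches on either strand to the E-box letters CACGTG, the GC box letters GGGCGG or the ETS letters CCGGAAG, and no matches overlapped.
Hdac8: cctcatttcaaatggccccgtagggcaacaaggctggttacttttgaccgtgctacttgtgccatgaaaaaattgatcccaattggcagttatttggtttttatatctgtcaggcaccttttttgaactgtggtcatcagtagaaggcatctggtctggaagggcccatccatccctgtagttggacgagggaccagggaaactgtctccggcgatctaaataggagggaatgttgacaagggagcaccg
Hdac2: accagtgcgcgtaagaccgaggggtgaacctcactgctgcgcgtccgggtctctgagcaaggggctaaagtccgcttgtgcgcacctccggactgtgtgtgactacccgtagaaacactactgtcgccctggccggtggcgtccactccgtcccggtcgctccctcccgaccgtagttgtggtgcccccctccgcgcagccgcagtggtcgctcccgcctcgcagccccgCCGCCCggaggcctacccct
Hdac6: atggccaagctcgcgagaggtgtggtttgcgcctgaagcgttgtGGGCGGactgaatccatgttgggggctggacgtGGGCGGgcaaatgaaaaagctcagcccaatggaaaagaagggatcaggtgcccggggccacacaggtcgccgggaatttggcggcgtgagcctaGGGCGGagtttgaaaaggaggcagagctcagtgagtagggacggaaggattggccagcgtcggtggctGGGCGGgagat
Hdac9: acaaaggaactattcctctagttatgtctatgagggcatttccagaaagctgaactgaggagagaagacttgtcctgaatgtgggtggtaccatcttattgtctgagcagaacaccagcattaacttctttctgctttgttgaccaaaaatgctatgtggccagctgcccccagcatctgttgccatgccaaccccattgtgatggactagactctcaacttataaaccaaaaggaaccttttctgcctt
Brd3: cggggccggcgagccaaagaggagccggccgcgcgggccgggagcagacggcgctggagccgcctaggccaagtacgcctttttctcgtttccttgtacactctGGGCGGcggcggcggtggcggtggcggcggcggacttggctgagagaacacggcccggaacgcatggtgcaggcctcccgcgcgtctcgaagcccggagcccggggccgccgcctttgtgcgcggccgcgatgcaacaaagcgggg
Hat1: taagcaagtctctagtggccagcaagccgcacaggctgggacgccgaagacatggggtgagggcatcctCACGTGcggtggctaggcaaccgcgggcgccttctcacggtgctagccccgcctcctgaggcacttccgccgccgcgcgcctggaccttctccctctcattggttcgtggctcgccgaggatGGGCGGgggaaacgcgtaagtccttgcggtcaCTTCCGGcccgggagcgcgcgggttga

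The Hdac8 stretch held 6 CpG and 48.4% G and C, with no match to any of the 3 motifs. Hdac9 held no CpG and 44.4% G and C, also with no match. The other 4 held 17 to 37 CpG and 61.2 to 73.2% G and C. The CpG counts and G and C shares of Hdac9 and Hdac8 were the lowest of the 31 members with a listed start. Kat7 (8 CpG, 50.8% G and C) and Yeats4 (11 CpG, 52.4%) lay above them, also with no match. Their starts had a peak in all 8 libraries. Whether base content goes with missing peaks among the members was not tested. Over the 31 members with a listed start, the median was 21 CpG and 64.0% G and C. The medians were 10 CpG and 55.6% over 21263 listed starts of protein-coding genes, 18 CpG and 62% over the 9792 starts with a peak in all 8 libraries, and 2 CpG and 46.4% over the 8032 starts with a peak in none. A GC box was found before 21 of 31 member starts (67.7%), an ETS match before 7 (22.6%) and an E-box before 3 (9.68%). Among the starts marked in all 8 libraries these shares were 65.2%, 16.1% and 8.93%, and among all listed starts 42.6%, 8.98% and 6.63%.

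Most of the genes carried H3K9ac in every library. A null library had a peak at an end of 32, 29, 33 and 33 of the 37 genes (clone 4_C2 replicates 1 and 2, then clone 6_C4 replicates 1 and 2), and an fx/fx library at 33, 32, 34 and 34 (clone 4_1, then clone 6_1). The mean was 31.8 ± 1.89 genes in null libraries and 33.2 ± 0.957 in fx/fx libraries (SD over 4 libraries of each genotype), and the ranges overlapped. In all 8 libraries 29 of the 37 genes were marked, as were 45.3% of all protein-coding genes. Without clone 4_C2 replicate 2 the count was 31. A further 5 members (Hdac6, Hdac8, Sirt5, Brd3 and Mllt3) were marked in some libraries, and Hdac4, Hdac7 and Hdac9 had no peak at either annotated end.

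**Figure D1:**
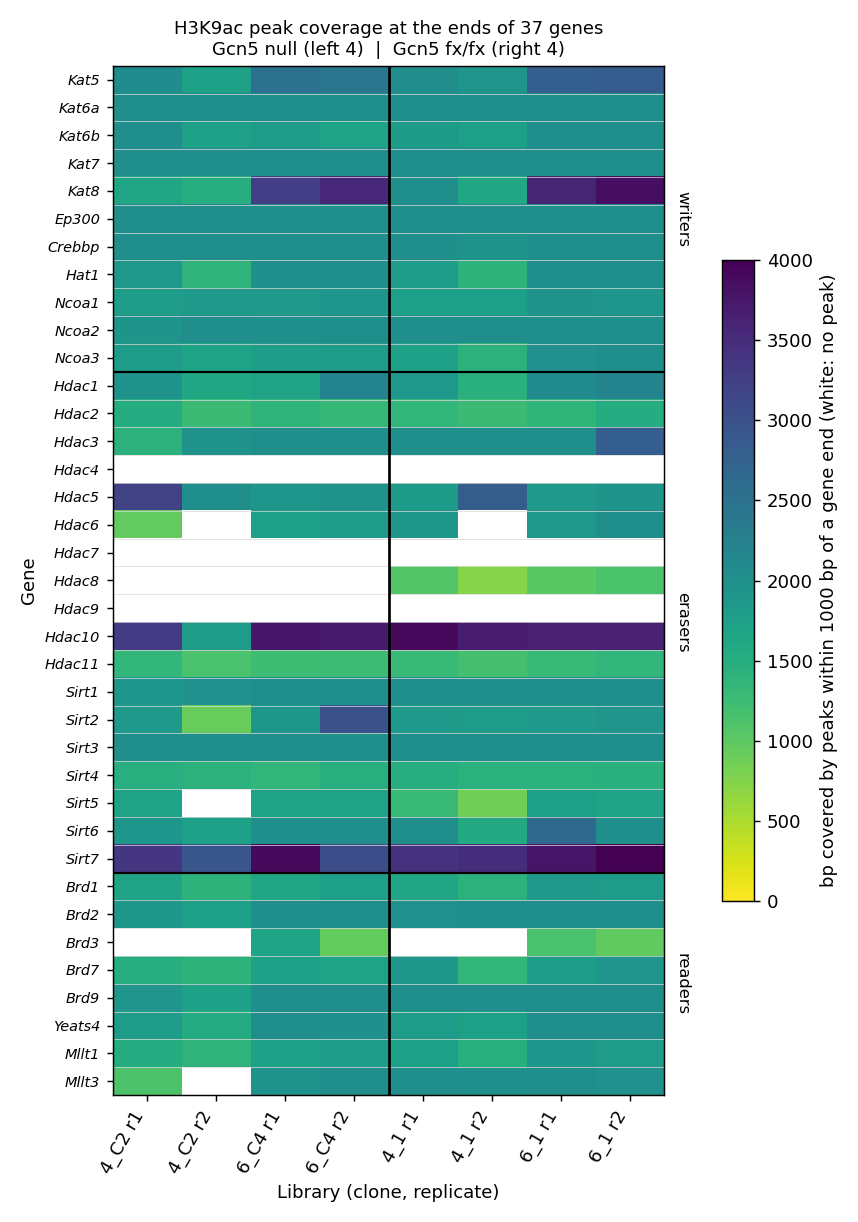
Base pairs covered by H3K9ac peaks within 1000 bp of either annotated end, for each of the 37 genes (rows, by role) in each library (columns, null left and fx/fx right), where white is no peak. The 11 writers are filled in every column, and Hdac8 is white in the 4 null columns and filled in the 4 fx/fx columns.

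All 11 writer genes were marked in all 8 libraries. Ep300 and Crebbp, which encode the coactivator acetyltransferases p300 and CBP, had regions of 3732 to 4849 bp and 2387 to 3774 bp in null libraries, against 4328 to 5167 bp and 3014 to 3839 bp in fx/fx libraries. Their centred changes were -0.03 ± 0.09 and -0.01 ± 0.09 (SE, limma adjusted p = 0.952 and 0.984). The widest writer region was that of Kat7, which encodes HBO1, an acetyltransferase of H3 lysine 14. It covered 5336, 4732, 5195 and 4530 bp in null libraries, against 5818, 3944, 5642 and 6720 bp in fx/fx libraries. The mean of 5240 bp was wider than that of 96.5% of the 10120 genes with a tested region, and the genotypes overlapped because clone 4_1 replicate 2 had the narrowest Kat7 region. The centred Kat7 change was -0.00 ± 0.13 (SE, limma). Kat8, which encodes MOF, the main acetyltransferase of H4 lysine 16, had the narrowest writer region, with a mean of 2123 bp.

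The MYST genes Kat6a and Kat6b encode the catalytic subunits of the MOZ and MORF complexes. Kat6b covered 3704, 2956, 3661 and 3696 bp in null libraries, against 3283, 3190, 4210 and 4434 bp in fx/fx libraries. In pair 6 both null libraries were narrower than both fx/fx libraries, and in pair 4 the genotypes overlapped. Kat5, which encodes Tip60 of the NuA4 complex, was marked at both ends, and the left end region is also that of Rnaseh2c. The right end of Kat8 was marked in the 4 pair 6 libraries only, in a region shared with Prss8, so that peak cannot be assigned to Kat8.

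The coactivator genes Ncoa1, Ncoa2 and Ncoa3, whose products bind nuclear receptors and recruit p300 and CBP, had the highest log2 width changes among the writers. Ncoa1 covered 2585, 2594, 2798 and 2411 bp in null libraries, against 2315, 2669, 2595 and 2440 bp in fx/fx libraries. The ranges overlapped, and the centred change was 0.19 ± 0.10 (SE, limma adjusted p = 0.724). Ncoa3 covered 2307, 2261, 2527 and 2548 bp in null libraries, against 2335, 2006, 2618 and 2837 bp in fx/fx libraries, with a change of 0.12 ± 0.09 (adjusted p = 0.783). The fx/fx range enclosed the null range, and without centring the Ncoa3 value was -0.01.

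Among the 18 erasers, Hdac8 was the one with a complete split by genotype. Hdac8 encodes a class I deacetylase known to act on the cohesin subunit SMC3. Its listed start at position 102505158 of chromosome X (minus strand, gene span 102284638 to 102505381) carried a peak of 1073 and 728 bp in clone 4_1 and of 1017 and 1129 bp in clone 6_1, against none in the 4 null libraries. The fx/fx mean was 987 ± 178 bp (SD, n = 4), and the groups did not overlap. No fold is given because the null libraries list no peak there.

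In the null libraries the nearest peak lay 138422 to 315519 bp from the Hdac8 start. The fx/fx peaks were narrow for their lists: 7.64% and 0.867% of the peaks in the clone 4_1 libraries and 8.12% and 6.23% in the clone 6_1 libraries were narrower. Among 13622 genes with an end peak in at least 1 library, 10 (0.0734%) were marked in all fx/fx and no null libraries, and Hdac8 was the single member. A two-sided exact permutation test over 70 splits gave p = 0.0286, the smallest it can give, and an adjusted p of 1. Over all those genes the exact test called 0 after adjustment (0%), so 0 members were called. It could call a gene only if most of the 13622 genes reached the smallest p, so this count was all but fixed in advance. At an unadjusted p under 0.05 in the exact test, 204 genes were lower and 14 higher in null libraries. With labels permuted within isolate pairs the smallest p is 0.0556, which was the p of Hdac8, so no gene was under 0.05.

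The same split of Hdac8 was seen within each isolate pair. In pair 4, 1.84% of genes were marked in both fx/fx libraries and neither null library, and in pair 6 1.13%, with Hdac8 the only member in either. The reverse pattern, both null and neither fx/fx library, was met by 0.374% of genes in pair 4 and 0.286% in pair 6, and by 0 members. No gene was marked in all null and no fx/fx libraries (0%), so 0 members were. Of 375 genes with an end peak on the X chromosome, 2 were marked in all fx/fx and no null libraries (0.533%), Hdac8 and Tmsb4x. Over all genes with an end peak this share was 0.0734%. The X chromosome held 2.12, 1.61, 1.91 and 2.10% of the peaks in null libraries, against 2.22, 2.16, 2.10 and 2.22% in fx/fx libraries. The part of this in the Hdac8 result was not tested. With each list cut to the length of the shortest by keeping its widest peaks, Hdac8 had as many null as fx/fx libraries with a peak, because its peaks fell below the width cut. Less acetylation in each cell, fewer cells carrying the mark and a weak peak missed in calling cannot be told apart here. The samples are bulk, and the lists hold no depth or height.

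The other class I genes were marked in all 8 libraries. Hdac2, whose product works with that of Hdac1 in the Sin3, NuRD and CoREST complexes, covered 2111, 1689, 1890 and 1903 bp in null libraries, against 1874, 1731, 2013 and 2114 bp in fx/fx libraries. The ranges overlapped, and the change was 0.11 ± 0.08 (SE, limma adjusted p = 0.783), or -0.03 without centring. Hdac1 had a region at each end, of which the left is also that of Marcksl1. The left one had a change of 0.11 ± 0.09 (SE, limma adjusted p = 0.813). The right one covered 1481 to 2154 bp in null libraries and 1778 to 2484 bp in fx/fx libraries, with a change of -0.12 ± 0.13 (adjusted p = 0.833).

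Hdac3, the catalytic subunit of the NCoR complex, had in its left end window a region that lies wholly outside the gene and is also that of Diaph1. Its peak reached the Hdac3 window in 1 library. The right end region, shared with Fchsd1 and Rell2, covered 1865, 2218, 2593 and 3085 bp in null libraries, against 2965, 2533, 2479 and 2913 bp in fx/fx libraries. Both pair 4 null libraries were below all 4 fx/fx libraries and the pair 6 null libraries were not. The change was -0.04 ± 0.15 (SE, limma adjusted p = 0.963).

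The class IIa genes Hdac4, Hdac5, Hdac7 and Hdac9 encode deacetylases that shuttle between nucleus and cytoplasm and repress MEF2 factors. Hdac4 and Hdac7 had no peak at an annotated end, and their marked starts lie inside the gene. The Hdac4 start region covered 2785, 2501, 3667 and 3287 bp in null libraries, against 3145, 2872, 3948 and 3491 bp in fx/fx libraries. In pair 4 both null libraries were narrower than both fx/fx libraries, in pair 6 the genotypes overlapped, and the centred change was -0.01 ± 0.09 (SE, limma adjusted p = 0.991). The Hdac7 start region covered 2165, 1908, 1971 and 2060 bp in null libraries, against 2059, 2047, 1834 and 2038 bp in fx/fx libraries, with a change of 0.16 ± 0.08 (adjusted p = 0.724).

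Hdac9 was the only member with no peak at an end or at a listed start in any library. A region 9287 bp inside its right end covered 1469, 0, 1283 and 1503 bp in null libraries, against 1403, 1173, 1818 and 1602 bp in fx/fx libraries. The library without it was clone 4_C2 replicate 2, which has the shortest list.

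The class IIb gene Hdac6, on chromosome X, encodes a mainly cytoplasmic deacetylase of tubulin. Its start region covered 1298, 0, 2219 and 2127 bp in null libraries, against 1990, 0, 2256 and 2386 bp in fx/fx libraries. The libraries without a peak were replicate 2 of clone 4_C2 and of clone 4_1, 1 of each genotype, and they had the 2 shortest lists. Hdac10, the other class IIb gene, had a left end region shared with Tubgcp6 and a right end region shared with Mapk12. The right region covered 1297, 0, 1909 and 1878 bp in null libraries, against 1989, 1701, 1802 and 1847 bp in fx/fx libraries. It was missing from clone 4_C2 replicate 2, so Hdac10 was marked in all 8 libraries through the left region only. Its left region covered 3721, 2062, 4599 and 4687 bp in null libraries, against 4823, 4478, 4810 and 3154 bp in fx/fx libraries, with a change of -0.11 ± 0.23 (SE, limma adjusted p = 0.930). The narrowest null library was clone 4_C2 replicate 2 and the narrowest fx/fx library clone 6_1 replicate 2. Hdac11, the class IV gene, had the narrowest tested region of all members (mean 1366 bp, with 3.29% of tested genes narrower). It covered 1367, 1293, 1262 and 1494 bp in null libraries, against 1356, 1178, 1433 and 1541 bp in fx/fx libraries, with a change of 0.12 ± 0.10 (adjusted p = 0.807), or -0.02 without centring.

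Of the sirtuin genes, 6 of 7 were marked in all 8 libraries. Sirt5, whose product removes succinyl groups in mitochondria, covered 1704, 0, 1822 and 1906 bp at its start in null libraries, against 1549, 1012, 1995 and 1912 bp in fx/fx libraries. Replicate 2 of pair 4 was the lowest of each genotype, and the ranges overlapped. Sirt1, which encodes a nuclear deacetylase, covered 2690, 2644, 3673 and 3823 bp in null libraries, against 3453, 2818, 3811 and 4510 bp in fx/fx libraries. In pair 4 both null libraries were narrower than both fx/fx libraries, and in pair 6 the genotypes overlapped. The centred change was -0.05 ± 0.09 (SE, limma adjusted p = 0.922).

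Sirt7, which encodes a deacetylase of H3 lysine 18, had the widest region of all members, and 99.9% of tested genes had a narrower one. It covered 10725, 10498, 10762 and 9753 bp in null libraries, against 10757, 8883, 10941 and 11446 bp in fx/fx libraries. Most of it lies beyond the right end of Sirt7 and the region is also that of Mafg, so its width belongs to both genes. The change was 0.13 ± 0.10 (SE, limma adjusted p = 0.785), and 0.00 without centring. Sirt6, which encodes a deacetylase of H3 lysine 9 and lysine 56, shared its region with Ankrd24 and covered 1742 to 3990 bp in null libraries and 1663 to 3474 bp in fx/fx libraries. Sirt2 shared its region with Nfkbib and Sirt3 with Psmd13. Sirt4 was marked at its right end in all 8 libraries, and in a region 4804 bp inside that end, at its listed start, in 3 null and 4 fx/fx libraries.

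Among the 8 readers, 6 were marked at an end in all 8 libraries. Brd2, which encodes a BET bromodomain protein, had the second widest region of the members. It covered 7339, 7187, 8354 and 7750 bp in null libraries, against 7728, 7820, 8428 and 8079 bp in fx/fx libraries, and the region also reaches the window of H2-DMa. The means were 7658 ± 522 bp in null libraries and 8014 ± 314 bp in fx/fx libraries (SD over 4 libraries of each genotype), with overlapping ranges. After centring, the change was above 0, at 0.07 ± 0.09 (SE, limma adjusted p = 0.879).

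Brd3, the other BET gene of the list, had a region at its listed start in all 8 libraries, of 3590, 3158, 3074 and 3877 bp in null libraries, against 3237, 3459, 3284 and 3673 bp in fx/fx libraries. A separate region at its annotated right end, 27504010 to 27508318 on chromosome 2, covered 0, 0, 4309 and 1848 bp in null libraries, against 0, 0, 3157 and 3145 bp in fx/fx libraries. The right end was thus marked in the 4 pair 6 libraries and in none of pair 4, whatever the genotype. Of all genes with an end peak, 1.01% were marked in all pair 6 and no pair 4 libraries and 0.0367% the other way round. Brd3 was the single member of the first kind, and 0 members were of the second.

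The YEATS gene Mllt3 encodes AF9, which with ENL, encoded by Mllt1, belongs to the super elongation complex. Mllt3 covered 2186, 0, 3329 and 3187 bp in null libraries, against 3429, 2463, 3565 and 3514 bp in fx/fx libraries. Both pair 4 null libraries were below all 4 fx/fx libraries, while the pair 6 null libraries lay within the fx/fx range. In the end windows the means were 1270 ± 940 bp in null libraries and 1992 ± 11.7 bp in fx/fx libraries (SD over 4 libraries of each genotype), with p = 0.171 in the two-sided exact permutation test and an adjusted p of 1. Coverage of a window is capped at 2001 bp, and the fx/fx libraries covered 1977 to 2001 bp, so their SD is bounded by the cap. The null library at 0 bp was clone 4_C2 replicate 2, which has the shortest list. Mllt1 covered 1969, 1466, 2029 and 2259 bp in null libraries, against 2423, 1774, 2299 and 2308 bp in fx/fx libraries, with a change of -0.06 ± 0.10 (SE, limma adjusted p = 0.913).

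Brd7 and Brd9 encode subunits of separate SWI/SNF complexes. Brd7 had the lowest unadjusted p among the members with a change below 0 when the widest end region stands for each gene. It covered 2110, 1939, 2888 and 2577 bp in null libraries, against 2638, 2084, 3269 and 2988 bp in fx/fx libraries. In pair 6 both null libraries were narrower than both fx/fx libraries, in pair 4 the genotypes overlapped, and the change was -0.07 ± 0.09 (SE, limma adjusted p = 0.889). Brd1, a scaffold of MYST acetyltransferase complexes, and Yeats4, which encodes GAS41, covered 2042 to 4929 bp and 1888 to 4037 bp in null libraries, against 2633 to 5566 bp and 2185 to 3625 bp in fx/fx libraries.

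**Figure D2:**
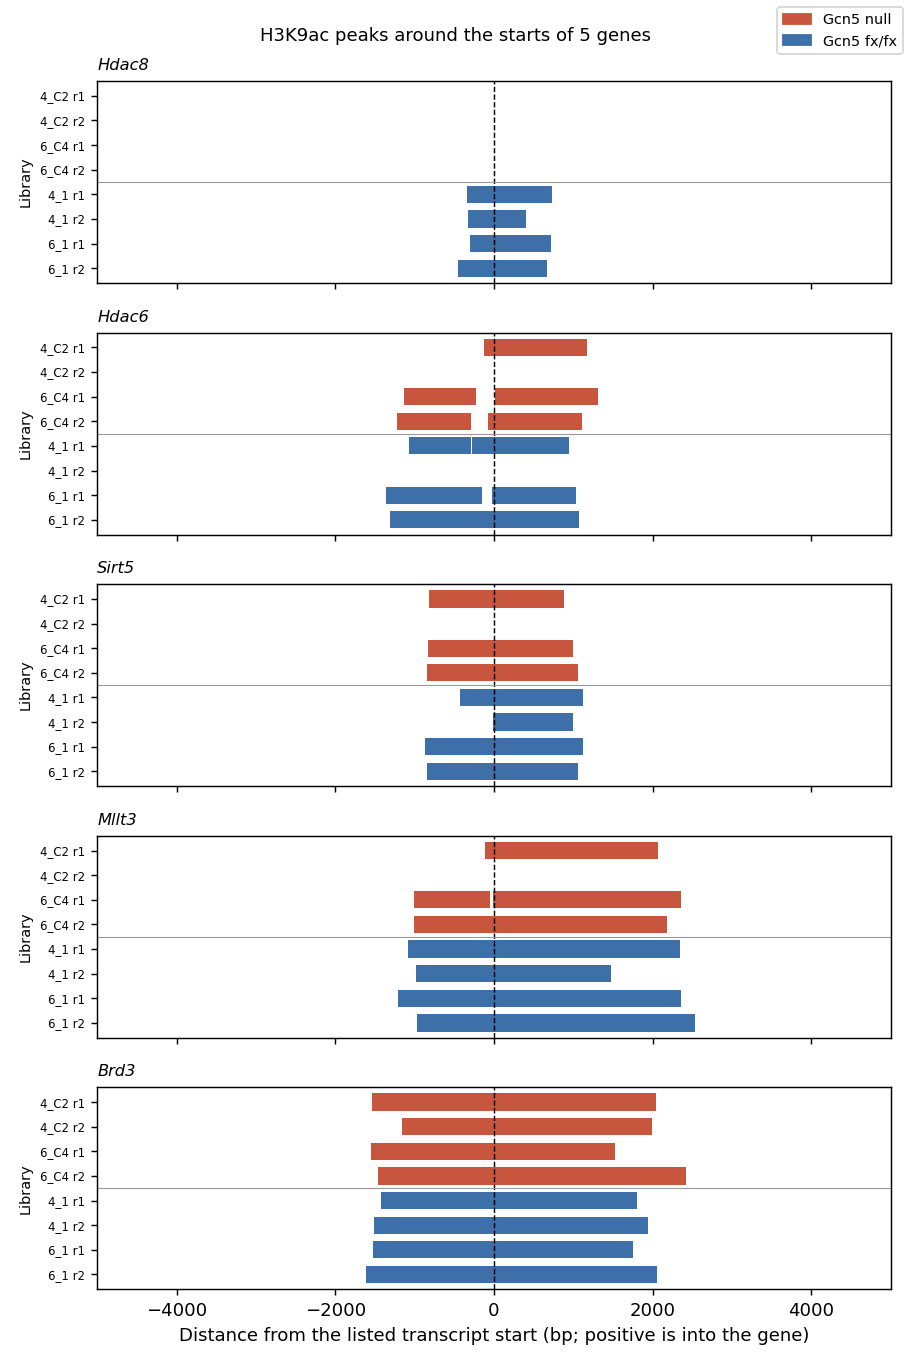
H3K9ac peaks (bars) around the listed transcript start (dashed line) of the 5 members marked at an end in some libraries, with distance in bp on the horizontal axis and the 4 null libraries above the 4 fx/fx libraries. Hdac8 has bars in the fx/fx rows only, Hdac6 lacks them in replicate 2 of clones 4_C2 and 4_1, Sirt5 and Mllt3 lack them in clone 4_C2 replicate 2, and Brd3 has them in all 8 rows.

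At most member starts, peaks reached farther into the gene than away from it. Reach was not measured for other genes, so whether the members differ from them in this was not tested. Of the 25 members with a start peak in all 8 libraries, 20 had a mean reach that was longer downstream than upstream, with medians of 1611 bp downstream and 1299 bp upstream. Sirt7 was one of the 5 exceptions, with 2391 bp upstream and 1352 bp downstream in null libraries, and 2604 bp and 1169 bp in fx/fx libraries. Over the 25 members the median reach downstream was 1507 bp in null libraries and 1654 bp in fx/fx libraries. Upstream it was 1238 bp in null libraries and 1348 bp in fx/fx libraries. It was shorter in null libraries downstream for 17 and upstream for 22 of the 25. These reaches are not centred. Without centring 84.1% of all 10171 regions were narrower in null libraries, and the median width of all regions present in the 8 lists was 1798 to 2408 bp in null libraries and 2113 to 2654 bp in fx/fx libraries.

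After centring each library on its median, no member's width was called different between null and fx/fx libraries. The 29 members marked at an end in all 8 libraries entered this comparison. Of the other 8, Hdac4, Hdac7 and Brd3 were tested at their start regions only (for Brd3 0.14 ± 0.10, SE, limma adjusted p = 0.783). The 29 had log2 changes of -0.11 to 0.19 with a median of -0.00, and 15 were below 0 (51.7%). Over all 10120 genes with a tested region the median was 0.01, with 46.8% below 0. The medians were -0.00 for 11 writers (6 below 0), 0.09 for 12 erasers (4 below 0) and -0.04 for 6 readers (5 below 0). Among the erasers, Hdac1 and Hdac3 enter with their left end regions, which are also those of Marcksl1 and Diaph1. The right end region of Hdac1, at -0.12, is not counted here. limma called 0 of 10171 regions narrower (0%) and 0 wider (0%) in null libraries, so 0 members were called in either direction. At an unadjusted p under 0.05 it had 327 regions narrower (3.22%) and 378 wider (3.72%), with 0 members in either. Without centring the median of all regions was -0.12 and that of the 29 members -0.138.

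**Figure D3:**
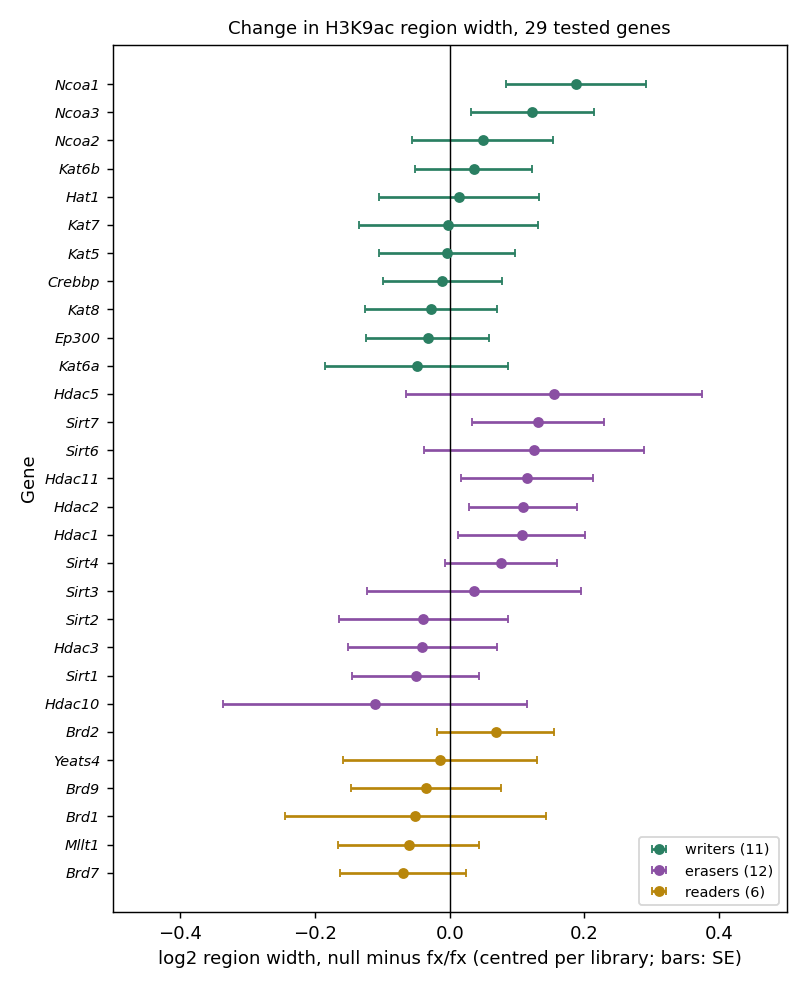
Log2 change in region width, null minus fx/fx, centred per library, for the 29 members marked at an end in all 8 libraries (points with SE from limma, n = 4 libraries of each genotype), grouped as writers, erasers and readers. The points lie between -0.11 and 0.19, on both sides of 0 in each of the 3 groups. The widest end region stands for each gene, which for Hdac1 and Hdac3 is the left end region.

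More regions were called between the isolate pairs than between the genotypes. limma called 256 regions narrower (2.52%) and 439 wider (4.32%) in pair 6 than in pair 4, and 1 member was called narrower and 2 wider. Without centring the calls were 22 narrower and 2724 wider, with 10 members among them. Leaving out any 1 of the 8 libraries gave 52 to 123 narrower and 262 to 375 wider. Hat1, which encodes an acetyltransferase of newly made histone H4, covered 3195 and 3076 bp in 6_C4 and 3319 and 4096 bp in 6_1, against 2210 and 1501 bp in 4_C2 and 2146 and 1566 bp in 4_1. All 4 pair 6 libraries were wider than all 4 pair 4 libraries, and the difference was 0.63 ± 0.12 (SE, limma adjusted p = 0.0163). The Hat1 change between null and fx/fx libraries was 0.01 ± 0.12 (adjusted p = 0.984).

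Hdac5 was called narrower in pair 6. It covered 3852 and 4714 bp in 6_C4 and 4158 and 2703 bp in 6_1, against 7478 and 3520 bp in 4_C2 and 6403 and 6301 bp in 4_1. The pair ranges overlapped through clone 4_C2 replicate 2, and the difference was -0.86 ± 0.22 (SE, limma adjusted p = 0.0479). That call was lost when any library other than clone 4_C2 replicate 2 was left out (-0.66 to -0.99, adjusted p 0.0541 to 0.118). It was also lost without centring (-0.59, adjusted p = 0.0996), and with regions missing from up to 4 lists kept and 100 bp added to each width (-0.84, adjusted p = 0.113). The other call was for the left end region of Hdac3, 1.09 ± 0.11 (adjusted p = 0.00101), all of which lies outside that gene. It covered 4821 and 4222 bp in 6_C4 and 4171 and 5271 bp in 6_1, against 1579 and 1661 bp in 4_C2 and 1980 and 1998 bp in 4_1. The right end region of Hdac3 differed by -0.04 ± 0.15 (adjusted p = 0.893). The start region of Hdac7, which is at no annotated end, was chosen for mention after its values were seen. It was called narrower in pair 6 by limma (-0.31 ± 0.08, adjusted p = 0.0436) but not without centring (-0.05, adjusted p = 0.652). Its 4 widths in pair 6 were 1834 to 2060 bp and in pair 4 1908 to 2165 bp, and these ranges overlapped.

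**Figure D4:**
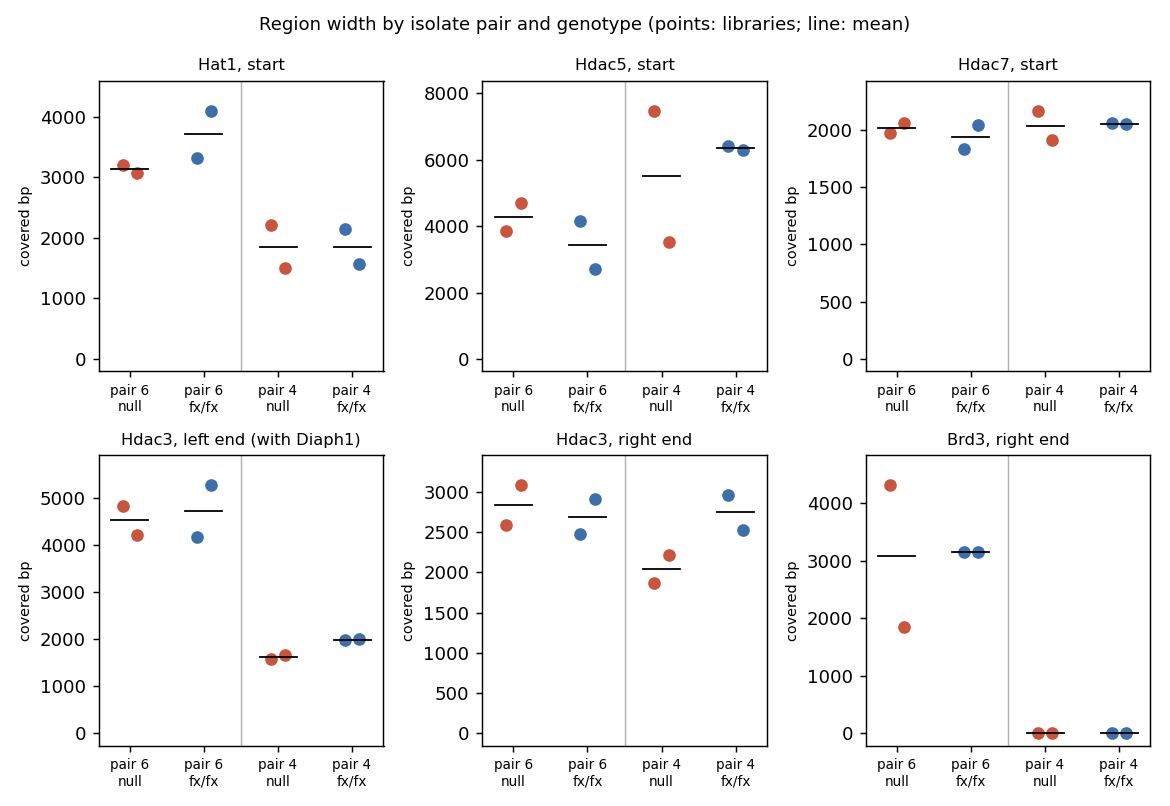
Base pairs covered by peaks in 6 regions of 5 members by isolate pair and genotype (points are libraries, lines are means of 2, and the vertical axis of each panel covers 0). Hat1 and the left end region of Hdac3 are wider in all pair 6 than in all pair 4 libraries, and the right end of Brd3 is at 0 in pair 4.

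Whether the genotype change differed between the pairs was tested as an interaction. limma called 0 of 10171 regions in the negative direction (0%) and 0 in the positive direction (0%), with 396 and 281 at an unadjusted p under 0.05, so 0 members were called. The 3 members with the lowest p were Brd9, Hdac10 and Kat6b. Brd9, in a region shared with Trip13, covered 3245 and 3030 bp in 6_C4 and 2832 and 3065 bp in 6_1, against 2065 and 1849 bp in 4_C2 and 2789 and 2487 bp in 4_1. The null libraries were narrower than the fx/fx libraries in pair 4 and overlapped them in pair 6, with a difference between pairs of 0.50 ± 0.16 (SE, limma adjusted p = 0.642). The difference was 0.98 ± 0.34 for the left region of Hdac10 (adjusted p = 0.691) and -0.28 ± 0.15 for Kat6b (adjusted p = 0.801).

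The genes for partners of these enzymes and for other readers were also examined. Of 87 genes in 5 lists, 78 had an end peak in all 8 libraries, where 45.3% of all protein-coding genes had one, 4 had it in some and 5 in none. limma called 0 of the 79 tested narrower or wider in null libraries, with 34 below 0. All 30 genes of the Sin3, NuRD, CoREST and NCoR deacetylase complexes, all 10 of the MSL and NSL complexes and all 7 of the MOZ, MORF and HBO1 complexes were marked in all 8 libraries. Of the 16 NuA4 genes 15 were, the exception being Mrgbp. Among 24 other acetyl-lysine reader genes 16 were marked in all 8 libraries. Of the others, Baz1a and Brdt, which encodes the BET protein of the testis, were marked in none. Dpf1 was marked in 2 null and 2 fx/fx libraries, all of pair 6. Dpf3 and Brwd3 were marked in 3 null and 4 fx/fx libraries and Smarca2 in 2 null and 3 fx/fx libraries. Phip and Atad2b had no peak at an annotated end but one at a listed start in all 8 libraries.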

How the data were processed

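H3K9ac ChIP-seq peaks of 8 libraries were used. The authors deposited for each library the coordinates of its peaks, with no score, height or count, called separately for each library. Bowtie 1.1.2, MACS 1.4.2 and mm10 were used, per the submitters' processing notes. The control, the calling threshold and filters on peaks were not given in the sources used here. Depth is unknown, so no counting interval is given. Lists from deeper sequencing can be longer and their peaks wider.

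Peaks of different lists sharing 1 bp or more formed 26034 merged regions, 10171 of them in all 8 lists. Log2 covered bp was centred on each library's median and tested with limma 3.58.1 in R 4.3.3, with a term for the isolate pair and a threshold of 0.05 on p adjusted over all regions (Benjamini-Hochberg). The interaction of genotype with isolate pair was fitted separately. The widest region at either gene end stood for a gene. Covered bp at gene ends was also tested per gene by a two-sided exact permutation test over 70 splits. The scripts were tested on simulated data. Gene spans and promoters came from RefSeq, GRCm38.p6. A start is listed for 31 of the 37 members, and where a member had several, the one marked in most libraries was used. Where starts were tied, the one farthest upstream was taken, which lengthens the reach downstream and shortens it upstream. Python 3.11.15 and pandas 2.3.3 were used otherwise.

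The members, lists and rules were chosen with earlier results of these data known. Values per library go to members marked in 1 to 7 libraries, to the 5 tested members with the lowest p in each direction, and to the 3 with the lowest p for the pairs and the interaction. Values of others were added after they were seen. Replicate numbers were not used to pair libraries across genotypes, except in an alternative fit with a replicate block.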

Additional observations from a re-analysis of the deposited data

Results flagged for a closer look

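Of 68 sets of 4 libraries of a genotype, 5 held a library whose covered length stood apart from the other 3 by Dixon's ratio at the 95% level, and chance flags about 1 in 20 sets. In 2 of the 5 the library was clone 4_C2 replicate 2 and in 2 it was clone 4_1 replicate 2, which have the 2 shortest peak lists. Sirt5 was at 0 bp in 4_C2 replicate 2, against 1704 to 1906 bp in the other null libraries. Kat6b covered 2956 bp in 4_C2 replicate 2, against 3661 to 3704 bp in the other null libraries. Hdac6 was at 0 bp in 4_1 replicate 2, against 1990 to 2386 bp in the other fx/fx libraries, and Mllt3 covered 2463 bp there, against 3429 to 3565 bp. Ncoa2 covered 3863 bp in clone 6_C4 replicate 2, against 3468 to 3515 bp in the other null libraries.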

How the results depend on the processing

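The peak lists hold no depth or height, so a shorter list and less acetylation cannot be told apart, and regions shared with a neighbouring gene cannot be assigned. The number of members marked in all libraries was 28 to 31 of 37 under the alternatives, and 25 of the 31 with a listed start when listed starts were used. Members marked in all fx/fx and no null libraries were 0 in lists of equal length, which drop narrow peaks by construction, and 1 otherwise. Without centring, the median change over the members was -0.138, the values of Ncoa3, Hdac2, Sirt7 and Hdac11 were -0.01, -0.03, 0.00 and -0.02, and the pair 6 calls were 22 narrower and 2724 wider, with 10 members. When regions missing from up to 4 lists were kept and 100 bp was added to each width, 17 regions were called narrower in null libraries. They include 1 member, Hdac8, whose fitted change depends on the added length and which passed this filter through its fx/fx libraries. That setting gave 1086 regions wider in pair 6 and interaction calls of 62 negative and 286 positive. Merging across gaps of 1000 bp gave Ncoa3 -0.20 and Mllt1 -0.32, and lists of equal length gave Hdac10 -0.25. Taking the region at the transcript start, or the end marked in most libraries, was chosen after seeing the data and gave Hdac3 -0.04 between pairs. Leaving out each library gave 0 to 1 regions narrower in null libraries (1 without 4_C2 replicate 2, 6_C4 replicate 1 or 6_C4 replicate 2) and 0 to 1 positive interactions (1 without 4_C2 replicate 1). It gave 52 to 123 regions narrower in pair 6, a fall of more than 1.5 times whichever library was left out, and 262 to 375 wider, with such a fall without 6_C4 replicate 1 or 2, 4_1 replicate 2, or 6_1 replicate 1 or 2. Without 1 library the null minus fx/fx change ranged from -0.12 to 0.03 for Mllt1, -0.09 to 0.00 for Sirt1, -0.34 to 0.10 for Hdac10 and -0.12 to 0.05 for the region at the left end of Hdac3 (-0.04 with all libraries), which lies outside that gene. The cause of these moves was not tested. After centring, the differences between replicates 1 and 2 correlated over regions at 0.109 between the clones of pair 4 and 0.0624 in pair 6. A shift shared by whole same-numbered libraries is removed before this value is taken, so a shared replicate batch was not tested. With a replicate block in the fit 0 regions were called, and before adjustment 349 were narrower and 321 wider with p under 0.05.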
